A study of Mus musculus with 8 samples.

Results

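Gene expression in mouse induced pluripotent stem (iPS) cells was compared with that in embryonic stem (ES) cells, with all 3 iPS lines taken as a single group. The comparison used all 8 arrays of the series: 6 arrays titled as iPS cell line 1, 2 or 3 (2 arrays a line) and 2 arrays titled as ES control. A gene was called separated when the 6 iPS arrays were without exception on the same side, above or below, of both ES arrays. Of 14004 genes measured, 1806 were separated. All cells were male C57BL/6, were cultured in N2B27 medium with mouse LIF and were harvested between passages 7 and 10. The labels describe each iPS line as integration-free, meaning that no reprogramming gene was inserted in the genome, and name neither the reprogramming factors nor the cell of origin. There was 1 ES line, so a property of that line and a property of ES cells in general cannot be told apart. The titles call the 2 arrays of a line biological replicates, but nothing says that they came from separate cultures, and p-values measure only the spread between these arrays.

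ES cells are derived from the inner cell mass of the blastocyst, and reprogramming factors can bring somatic cells back to a similar state, as iPS cells. LIF, a cytokine acting through Stat3, keeps mouse cells of both kinds in the naive state, which rests on a network built around Oct4 (gene Pou5f1), Sox2 and Nanog. Lines of either kind can differ in imprinting, in sex chromosome content and in metabolism, and differences seen in every reprogrammed line have long been of interest as possible traces of reprogramming.

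Levels are MAS5 signals, the authors' brightness values for each set of probes, which are comparable between arrays for a gene but not between genes. Differences are in log2(signal + 12), iPS minus ES, given with their standard error over 6 against 2 arrays, and they understate the change of dim genes. The test was limma with Benjamini-Hochberg adjustment over all 14004 genes and a threshold of 0.05, and all adjusted p-values below are from it. Because the lines were pooled, a gene that differed between iPS lines carried that spread in its error. The 2 arrays of a line entered as separate samples, although arrays of a line were correlated (0.48). The standard errors and p-values below can therefore be too small. For Mid1 the standard error was 0.20, against 0.29 in a fit with line as a random block, which allows for this correlation. The gap of a gene is the log2 distance between the iPS array and the ES array that lie nearest to each other. The test and the separation rule read the same arrays, so neither is a check of the other.

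The arrays had median signals of 54.1 to 64.3, and 58.1 to 61.4% of probe sets on each were brighter than the floor of 37.1, the 40th percentile of all signals. The defining ES cell markers were bright in every array: Pou5f1 lay at 11786 and 12035 in ES and at 9680 to 11571 in iPS, and Sox2 at 12333 and 13287 in ES and at 12152 to 13183 in iPS. Line 2 stood apart. It held the extreme scores of the first principal component, and its ratio of 3′ to 5′ beta-actin signal, a sign of RNA quality, was 1.74 and 1.79 against 1.49 to 1.62 on the other 6 arrays. The same ratio for Gapdh did not set line 2 apart. It was 0.915 and 0.946 in line 2, 0.935 in replicate 1 of line 3 and 0.856 to 0.893 on the remaining arrays. The part of RNA quality in the results was not tested.

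Few genes passed the test although many were separated. Separated genes were higher in iPS in 1002 cases (7.16% of those tested) and lower in 804 (5.74%). Most of these separations were narrow: the gap was under 0.1 for 989 genes (54.8% of the separated), and its median size was 0.09 beside a median absolute difference of 0.38. The gap reached 0.5 for 49 higher and 25 lower genes, and 1 for 7 higher and 3 lower genes. The narrowest separated gene was Gm16136, with a gap of 0.000197, and the nearest miss was Nsun3, whose gap was -2.27e-05. In all, 626 genes were separated by less than 0.05 and 919 overlapped by less than 0.05. By limma, 14 genes rose (0.1% of those tested) and 3 fell (0.0214%), 17 in all (0.121%), and all 17 were separated. At an unadjusted p under 0.05 there were 634 higher and 430 lower genes. The 3 iPS lines differed among themselves (limma F test over the lines, which uses no difference from ES) for 4090 genes, 29.2% of those tested, and for 485 of the separated genes, 26.9%.

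**Figure D1:**
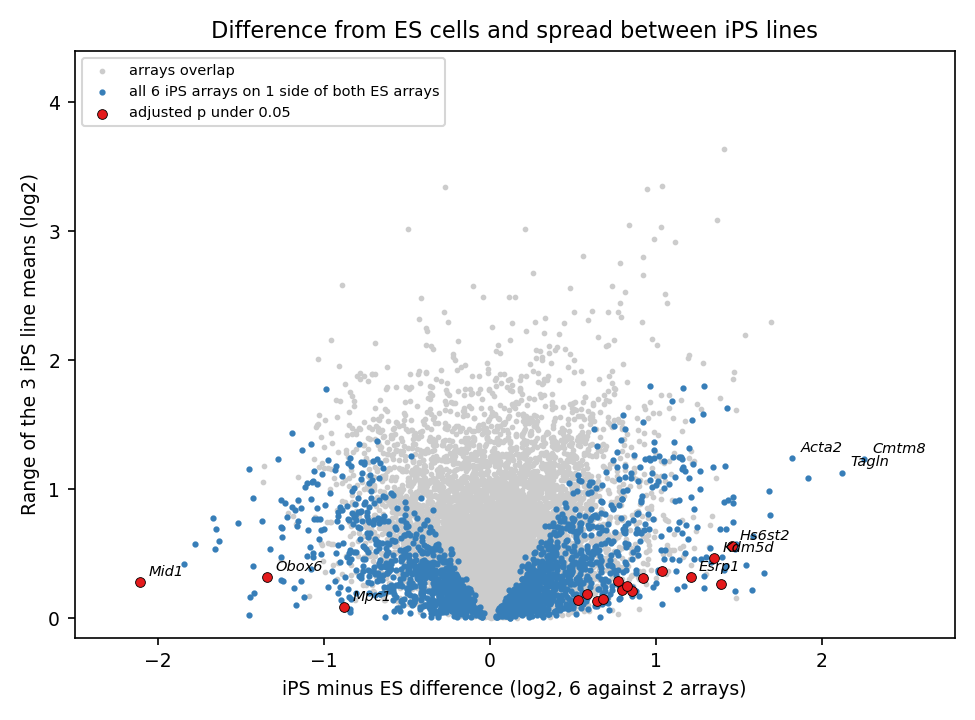
Each point is a gene, with its iPS minus ES difference (log2) on the horizontal axis and the range of the 3 iPS line means (log2) on the vertical axis. The 17 genes that passed the test (red) lie low on the vertical axis, while Tagln, Acta2 and Cmtm8 have large differences and ranges over 1. The test favours small ranges, because the spread between lines enters its error.

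The 17 calls rest on both ES arrays. With either ES array left out no gene passed (561 and 634 at an unadjusted p under 0.05), and with line as a random block in limma 7 passed, which were Mid1, Obox6, Mpc1, Klhl13, Plac8, Esrp1 and 2610037D02Rik. When each line was its own group and the mean of the lines was tested, so that differences between lines left the error, 1022 genes passed (7.3% of those tested), 692 of them separated (67.7%). Without line 2, 202 genes passed, and all 17 were among them. Each of the 17 kept its direction in all 24 alternative settings in which it was measured. As all 17 were separated, leaving out arrays or lines or changing the model could not have turned a direction.

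The 3 genes that fell lie on different chromosomes. Mid1, on chromosome X, encodes a microtubule-associated ubiquitin ligase and, in laboratory mice, spans the boundary of the pseudoautosomal region shared by X and Y. Its signal was 327 and 283 in ES and ran from 52.2 through a median of 60.2 to 71.7 in iPS. No iPS array came near the ES arrays, and the 3 lines lay within 0.28 of each other. The difference was -2.11 ± 0.20 (SE; adjusted p = 0.00515), the widest gap of any gene at -1.81. The 2 other Mid1 probe sets were dim, at 44.3 or less in every array, and were not separated. Erdr1, which also lies in the pseudoautosomal region and was chosen after its values were seen, was separated by a gap of -0.04 and did not pass (-0.42 ± 0.15, adjusted p = 0.544).

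Obox6, on chromosome 7, is a homeobox gene of the oocyte and early embryo. Its ES signals were 1061 and 1112, and its iPS signals had a lowest value of 376, a median of 416 and a highest value of 489. The groups were far apart, and the difference was -1.34 ± 0.14 (adjusted p = 0.00515). Mpc1, on chromosome 17, encodes a subunit of the carrier that brings pyruvate into mitochondria. It lay at 1929 and 1871 in ES and at 1001, 1014 and 1078 (lowest, median and highest) in iPS. Mpc1 had the most even level of the 17 genes across the iPS lines, with line differences from ES of -0.91, -0.90 and -0.82, and its pooled difference was -0.88 ± 0.09 (adjusted p = 0.00515).

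Among the genes that rose, 4 lie on a sex chromosome and 10 elsewhere. Hs6st2, on X, encodes an enzyme that adds sulfate to heparan sulfate chains, which bind growth factors. Its signal was 72.9 and 65.2 in ES and 171, 209 and 295 (lowest, median and highest) in iPS, a difference of 1.46 ± 0.22 (adjusted p = 0.0370). The other Hs6st2 probe sets were dim, at 37.7 or less in every array, and were not separated (-0.38, -0.55 and 0.07). Klhl13, on X, encodes a substrate adaptor of a cullin ubiquitin ligase. It was bright throughout, at 4903 and 4887 in ES and at 7427, 7798 and 8472 in iPS (0.68 ± 0.07, adjusted p = 0.00515). Armcx2, on X, belongs to a family of armadillo-repeat proteins. It lay at 1499 and 1411 in ES and at 2211, 2496 and 2891 in iPS (0.79 ± 0.11, adjusted p = 0.0213). Its neighbours in the family were Armcx4, separated at 0.58 ± 0.12 (adjusted p = 0.137), Armcx3, separated at 0.74 ± 0.29 (adjusted p = 0.591), and Armcx1, whose arrays overlapped (0.24 ± 0.13, adjusted p = 0.731).

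Kdm5d lies on Y and encodes a histone H3 lysine 4 demethylase. Its signal was 117 and 111 in ES and 231, 328 and 368 in iPS, a difference of 1.35 ± 0.18 (adjusted p = 0.0243). Of 7 Y genes tested, 2 were higher and none lower in all 6 iPS arrays, with a median difference of 0.38, and Kdm5d alone passed. The other separated Y gene was Orly, at 43.9 and 48.4 in ES and 56.5 to 77.4 in iPS (0.49 ± 0.23, adjusted p = 0.667). Among the overlapping Y genes were Uty, which encodes a Jumonji-domain protein (0.42 ± 0.22, adjusted p = 0.721), and the translation factor gene Eif2s3y (0.23 ± 0.14, adjusted p = 0.751), all 3 named after their values were seen. Chromosome X held 458 of the genes tested, of which 59 were higher (12.9%) and 31 lower in all 6 iPS arrays. In all, 19.7% of its genes were separated, against 10.7 to 15% on the autosomes, and 4 of the 17 called genes lie there. Rlim (0.54 ± 0.11, adjusted p = 0.145), a regulator of X inactivation, and the kinase gene Stk26 (0.89 ± 0.17, adjusted p = 0.123) were separated higher on X, and Nr0b1 (-0.76 ± 0.27, adjusted p = 0.529) and the glypican gene Gpc4 (-1.07 ± 0.26, adjusted p = 0.234) lower.

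Esrp1, which rose, encodes a splicing regulator that directs epithelial isoforms. It lay at 494 and 510 in ES and at 1055, 1132 and 1425 in iPS, so that every iPS array had more than the highest ES array, by a gap of 1.03. The difference was 1.21 ± 0.13 (adjusted p = 0.00515), and the iPS lines differed from each other by 0.32 (F test adjusted p = 0.0258), with line 2 highest. Cd24a, which encodes a small surface glycoprotein, lay at 2632 and 2528 in ES and at 3714, 4000.5 and 4404 in iPS (0.64 ± 0.08, adjusted p = 0.0204), and its 2 dimmer probe sets were separated in the same direction. Plac8, a cysteine-rich protein gene first named for its expression in placenta, lay at 1091 and 1132 in ES and at 1951, 2256 and 2625 in iPS (1.03 ± 0.12, adjusted p = 0.0112). Line 3 was highest for Plac8.

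Both enzymes that open the serine synthesis pathway rose. Phgdh, on chromosome 3, catalyses the first step from 3-phosphoglycerate, and Psat1, on chromosome 19, the transamination that follows. Phgdh lay at 4443 and 4615 in ES and at 6154, 6427 and 7044 in iPS (0.53 ± 0.07, adjusted p = 0.0250). Psat1 lay at 7137 and 6488 in ES and at 9311, 10468 and 11090 in iPS (0.59 ± 0.08, adjusted p = 0.0253). All 6 iPS arrays were above both ES arrays for both genes, and their other probe sets were separated higher too. Every Phgdh probe set has the suffix _x_at, and whether these sets also bind other transcripts was not tested. Phgdh was not measured in the setting that left out _x_at and _s_at sets. Psph, the enzyme of the last step, was not separated (0.29 ± 0.11, adjusted p = 0.567). Both calls were lost with line as a random block, where limma gave an adjusted p of 0.102 for each.

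The 250 bases before the start of these genes are printed because the pair moved together. They come from RefSeq (GRCm38.p6), 5′ to 3′ in the direction of transcription, on the minus strand, at chr3:98339970-98340219 for Phgdh and at chr19:15925060-15925309 for 1 of the 2 Psat1 starts listed. Capitals mark CCAAT, searched on both strands.
Phgdh: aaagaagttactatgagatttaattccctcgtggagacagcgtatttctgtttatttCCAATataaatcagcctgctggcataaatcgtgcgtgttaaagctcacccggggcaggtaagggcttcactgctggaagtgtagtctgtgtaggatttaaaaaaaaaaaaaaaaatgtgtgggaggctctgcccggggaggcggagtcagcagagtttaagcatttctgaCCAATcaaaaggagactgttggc
Psat1: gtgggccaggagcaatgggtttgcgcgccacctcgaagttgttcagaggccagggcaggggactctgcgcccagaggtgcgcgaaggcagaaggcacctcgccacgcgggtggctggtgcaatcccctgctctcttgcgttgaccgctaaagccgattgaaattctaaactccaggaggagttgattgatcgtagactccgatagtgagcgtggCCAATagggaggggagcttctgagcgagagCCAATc
Each window held 2 matches on the printed strand, at -193 and -23 in Phgdh and at -36 and -6 in Psat1, counted from the start site. CCAAT was found in 33.8% of the 32851 promoter windows in the RefSeq table. TGATGNAAN, a form of the element bound by Atf4, was found in 3.4% of them, and these letters were in neither window. A match is a description of the letters only.

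The genes Dppa3, Phlda2 and Foxp1, of unlike functions, also rose. Dppa3 (Stella), a maternal factor that protects methylation in the zygote, lay at 1513 and 1586 in ES and at 2308, 3051 and 3365 in iPS (0.92 ± 0.13, adjusted p = 0.0330). Phlda2, an imprinted gene that restrains placental growth, lay at 2004 and 2068 in ES and at 2925, 3530.1 and 4062 in iPS (0.77 ± 0.12, adjusted p = 0.0376). Foxp1, a forkhead transcription factor gene, lay at 442 and 470 in ES and at 733, 806 and 924 in iPS (0.82 ± 0.13, adjusted p = 0.0473). No iPS array reached down to an ES array for these genes. Foxp1 was the least stable call, held in 7 of 24 alternative settings, although 5 of its 7 further probe sets were separated higher as well.

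Dtd1, whose product removes D-amino acids wrongly attached to transfer RNA, lay at 785 and 789 in ES and at 1340.1, 1402 and 1657 in iPS (0.86 ± 0.10, adjusted p = 0.0122). Its other probe set was dim, at 38.8 or less in every array, and was not separated (0.02). The last gene is known only by the clone name 2610037D02Rik. It lay at 119 and 114 in ES and at 277, 323 and 374 in iPS (1.39 ± 0.15, adjusted p = 0.00515), and its dimmer probe set showed the same order. Esrp1, 2610037D02Rik, Obox6 and Mpc1 kept their calls in 21 of 24 alternative settings, more than the other 13 genes. Of the 17 genes, 4 differed between iPS lines by the F test, which were Esrp1, Phlda2, Plac8 and Psat1. Among all genes tested the share that differed was 29.2%.

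**Figure D2:**
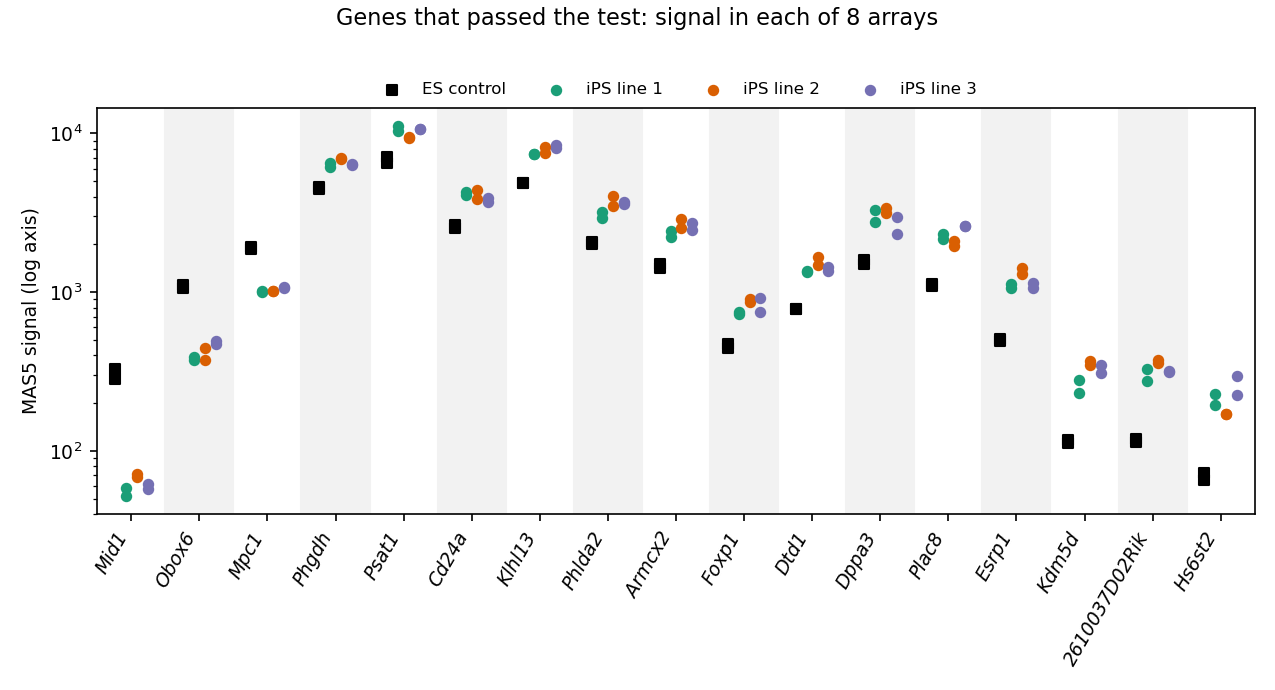
MAS5 signal (log axis) of each of the 17 genes that passed the test, with black squares for the 2 ES arrays and circles for the 2 arrays of each iPS line. For every gene the squares lie wholly above (Mid1, Obox6, Mpc1) or wholly below the circles.

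Several genes with larger differences did not pass the test. The following were chosen after their values were seen, as those with the widest gap. Tagln, which encodes the smooth muscle actin-binding protein transgelin, lay at 116 and 145 in ES and at 380, 565 and 1029 in iPS, a difference of 2.12 ± 0.35 (adjusted p = 0.0597). Acta2, smooth muscle actin, lay at 332 and 288 in ES and at 710.1, 1159 and 1745 in iPS (1.82 ± 0.33, adjusted p = 0.0954). For both genes the groups were well apart, and line 1 was highest: its own difference from ES was 2.81 for Tagln and 2.42 for Acta2, against 1.68 and 1.18 for line 3. The lines share the ES arrays, so their differences from ES are not independent of each other. Cmtm8 was below the floor in both ES arrays, at 6.85 and 4.74, and over it in all 6 iPS arrays, at 47.0 to 152.

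Signalling genes were among those with wide gaps. Lef1, a nuclear effector of Wnt signalling, lay at 231 and 215 in ES and at 426, 594 and 1038 in iPS (1.47 ± 0.29, adjusted p = 0.130), and line 2 was highest. Lefty1, a secreted inhibitor of Nodal, lay at 510 and 662 in ES and at 1060.3, 1756 and 2212 in iPS (1.46 ± 0.27, adjusted p = 0.0954). Sp5, a transcriptional target of Wnt, was at 0.76 ± 0.15 (adjusted p = 0.132). Gadd45g, a stress-response gene, was at 1.18 ± 0.26 (adjusted p = 0.178), with line 3 highest. None of these passed, though no iPS array overlapped an ES array. Other members of the Wnt and Nodal lists were separated lower, among them Sfrp1, Tcf7l2 and Nodal. Higher and then lower genes numbered 6 and 2 of 29 Wnt genes and 3 and 4 of 21 Nodal and Lefty genes.

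Lower in all 6 iPS arrays were Htra1, a secreted serine protease gene, at 1596 and 1474 in ES and 403, 603 and 872 in iPS (-1.37 ± 0.23, adjusted p = 0.0709). Zdbf2, an imprinted gene, lay at 1115 and 975 in ES and at 325, 416 and 600 in iPS (-1.25 ± 0.22, adjusted p = 0.0756). Xaf1, an interferon-inducible gene, lay at 400 and 376 in ES and at 125, 141 and 209 in iPS (-1.25 ± 0.22, adjusted p = 0.0756). Their iPS and ES arrays were clearly apart, and the lines differed by the F test for each of them. Car8, a carbonic anhydrase-related gene, lay at 274 and 322 in ES and at 146, 164 and 173 in iPS (-0.84 ± 0.15, adjusted p = 0.0932), with line differences of -0.82, -0.86 and -0.86. Apom, which encodes an apolipoprotein, was at -1.45 ± 0.25 (adjusted p = 0.0756), and the lines did not differ by the F test (adjusted p = 0.907).

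**Figure D3:**
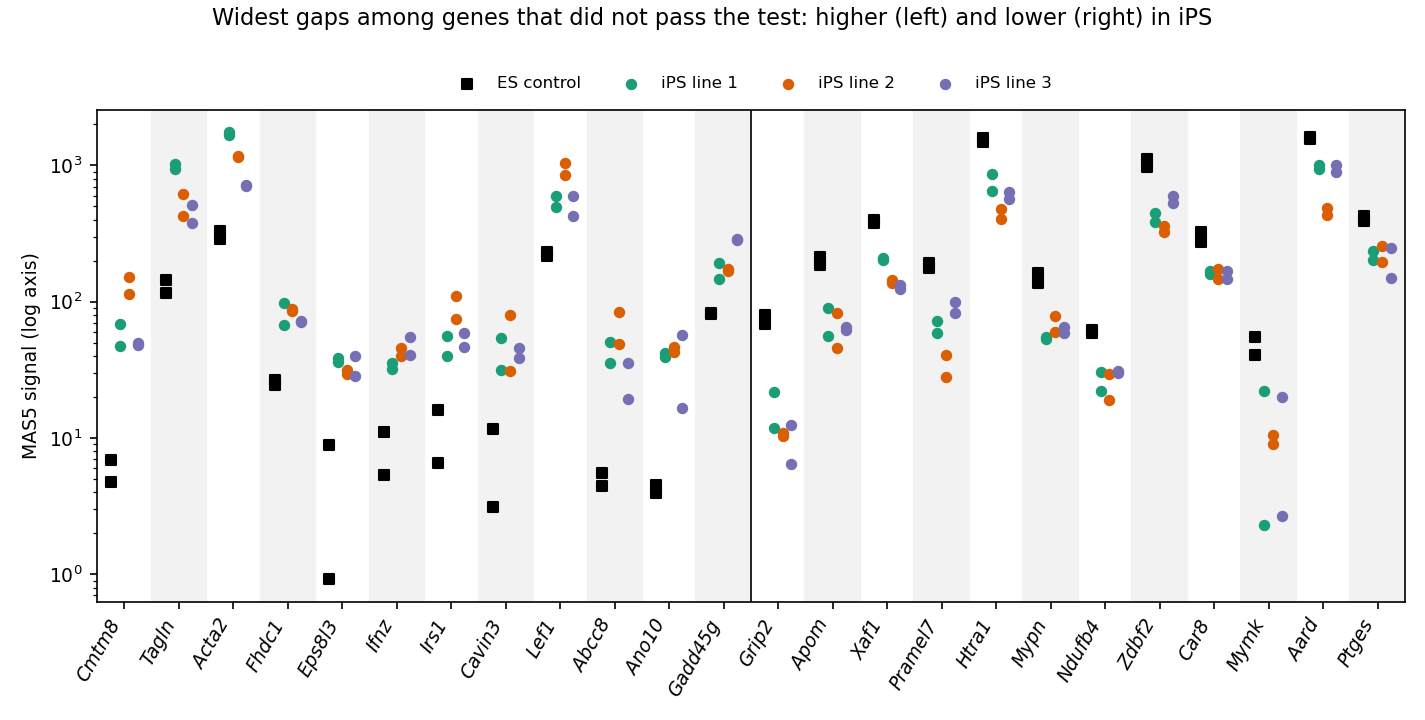
MAS5 signal (log axis) of the 12 higher and 12 lower genes with the widest gap among those that did not pass the test, with black squares for ES and circles for each iPS line. Several of them, such as Acta2 and Aard, show iPS lines at different levels, and Abcc8 and Ano10 were under 10 in both ES arrays.

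Genes crossing the floor were few. Of 14004 genes tested, 18 were over the floor in all 6 iPS arrays and at or under it in both ES arrays. For 37 genes the reverse held. Those 37 passed the filter only through the 2 ES arrays, so the counts in the 2 directions are not comparable. With the floor in place of the dim values, Fndc3c1 was at least 2.47-fold, Cyp1b1 at least 2.40-fold and Hdac11 at least 2.01-fold higher in iPS. Grip2 was at least 1.98-fold, Ndufb4 at least 1.63-fold and Birc7 at least 1.61-fold lower. None of these 6 passed the test, and a dim signal is a bound, not an absence.

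Gene lists were read as counts of separated genes beside the 12.9% of all genes tested. That share was exceeded in 25 of 29 lists of pathways and markers, and in 5 of 11 gene families defined by symbol alone, whose shares ran from 0 (histones) to 16.1% (ABC transporters). No family member passed the test. The share of separated genes was also greater at higher levels, from 8.97% of genes with a mean signal under 100 to 14.9% of those over 1000. The lists were chosen with earlier results of these data known, which can raise their shares. A share over 12.9% alone therefore does not mark a list, and the list counts below are descriptions only. In bulk samples fewer cells of a type and less RNA per cell cannot be told apart.

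Of 15 preimplantation and 2-cell-like genes tested, none was higher and 7 were lower in all 6 iPS arrays, with a median difference of -0.44. Obox6 was the 1 that passed. Pramel7 lay at 176 and 191 in ES and at 28.2, 65.7 and 99.5 in iPS (-1.45 ± 0.36, adjusted p = 0.264). Khdc3, a gene of the oocyte's subcortical maternal complex, lay at 1642 and 1577 in ES and at 770.1, 921 and 1190.7 in iPS (-0.77 ± 0.17, adjusted p = 0.178), and its partner Ooep was at -0.35 ± 0.08 (adjusted p = 0.237). The remaining separated members were Nlrp4f, Pramel6 and Obox5, between -1.08 and -0.46.

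Of 32 naive pluripotency genes, 10 were lower and 1, Dppa3, was higher in all 6 iPS arrays, with a median of -0.18. Dppa3 alone passed. The lower members included Tbx3, a transcription factor of the naive network (-0.35 ± 0.07, adjusted p = 0.132), Prdm14, a repressor of differentiation (-0.32 ± 0.11, adjusted p = 0.511), and Tet2, a 5-methylcytosine oxidase (-0.37 ± 0.13, adjusted p = 0.541). These were small differences, and Tbx3 was even across lines, at -0.37, -0.36 and -0.33. Within this list 20 genes (62.5%) differed between iPS lines.

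Of 27 epithelial junction genes, 10 were higher and 1 lower in all 6 iPS arrays, with a median of 0.31, and Esrp1 passed. Epcam, an epithelial adhesion molecule, lay at 4375 and 4559 in ES and at 6245, 6427 and 7971 in iPS (0.60 ± 0.10, adjusted p = 0.0756). Cdh1, E-cadherin, had a smaller difference of 0.23 ± 0.07 (adjusted p = 0.438). The claudin genes Cldn6 (0.82), Cldn7 (0.92) and Cldn4 (0.42) were separated as well. Line 2 was highest for Epcam and all 3 claudins, with 1.79 for Cldn7 against 0.27 in line 3. Of 17 keratin and desmosome genes 5 were higher and 2 lower. Krt8, a keratin of simple epithelia, lay at 715 and 759 in ES and at 1103, 1574 and 2593 in iPS (1.17 ± 0.31, adjusted p = 0.289), with line 1 highest.

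Of 36 genes of the integrated stress response, the Atf4-led response to amino acid shortage and other stresses, 8 were higher and 1 lower. Phgdh and Psat1 passed. Among the others were the mitochondrial folate enzyme genes Shmt2 (0.23 ± 0.09, adjusted p = 0.609) and Mthfd2 (0.43 ± 0.19, adjusted p = 0.650), and the lower gene was Cth (-0.46 ± 0.17, adjusted p = 0.540). Of 46 imprinted genes 10 were higher and 4 lower, and Phlda2 passed. Peg3, a paternally expressed gene, was at 0.53 ± 0.11 (adjusted p = 0.138), and Sfmbt2 at 0.77 ± 0.15 (adjusted p = 0.122). Of 41 germline genes 7 were higher and 7 lower, and Dppa3 passed. Dmrt1, a transcription factor gene of the testis, was at 0.80 ± 0.13 (adjusted p = 0.0580).

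Of 31 p53 targets 1 was higher and 6 lower, and none passed. Of 45 actin and contractile genes 7 were higher and 2 lower, and of 29 Wnt genes 6 were higher and 2 lower. Of 35 glycolysis and hypoxia genes only Pdk1, the kinase that restrains pyruvate dehydrogenase, was separated (0.64 ± 0.17, adjusted p = 0.279), and 31 (88.6%) differed between the iPS lines. For example, Ndrg1, a hypoxia-induced gene, differed from ES by 1.05, 3.41 and -0.23 in lines 1, 2 and 3. No histone gene of 17 was separated.

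**Figure D4:**
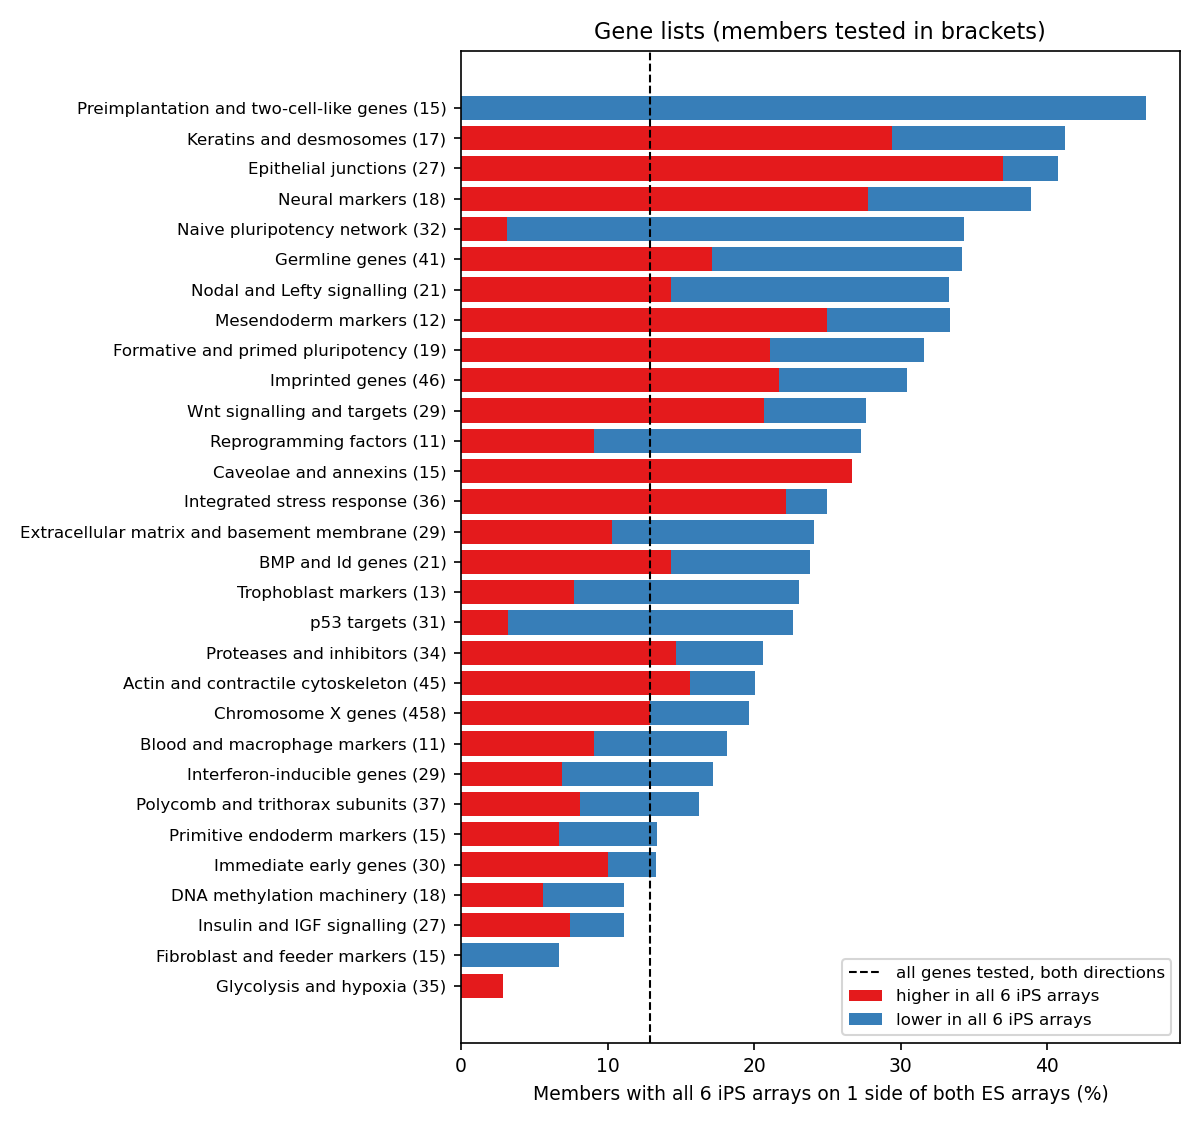
Share of the tested members of each gene list (number in brackets) whose 6 iPS arrays all lay above (red) or all below (blue) both ES arrays, in percent. The dashed line is the share among all genes tested, 12.9%, and preimplantation genes (46.7%, all lower) stand highest. The lists were chosen with earlier results of these data known.

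The remaining lists are given by their separated genes, higher and then lower: 4 and 2 of 19 formative and primed genes, 3 and 4 of 21 Nodal and Lefty genes, 3 and 2 of 21 BMP and Id genes, and 4 and 0 of 15 caveolae and annexin genes. The counts were 2 and 1 of 27 insulin and IGF genes, 2 and 3 of 29 interferon-inducible genes, 5 and 2 of 34 proteases and inhibitors, and 3 and 4 of 29 matrix genes. They were 3 and 1 of 30 immediate early genes, 1 and 1 of 18 DNA methylation genes, and 3 and 3 of 37 Polycomb and trithorax genes. No gene of these lists passed the test.

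Among the reprogramming factors, none of 11 genes passed the test. Sox2 (-0.00302 ± 0.06, adjusted p = 0.992), Klf4 (0.14 ± 0.10, adjusted p = 0.799), Myc (-0.55 ± 0.37, adjusted p = 0.788) and Lin28a (0.09 ± 0.20, adjusted p = 0.938) overlapped between the groups, as did Nanog (-0.17 ± 0.07, adjusted p = 0.602), Mycl (-0.03), Lin28b (0.99) and Glis1 (1.04). Pou5f1 (-0.13 ± 0.07, adjusted p = 0.731) and Esrrb (-0.23 ± 0.09, adjusted p = 0.592) were separated lower and Mycn (0.23 ± 0.07, adjusted p = 0.395) higher, by gaps of -0.03, -0.08 and 0.16. A second, dimmer probe set was not separated for Esrrb, where it went the other way (0.18), or for Mycn (0.16). Myc differed between lines, at -0.26, -1.30 and -0.08 in lines 1, 2 and 3, so that line 2 was lowest.

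Markers of other cell types were looked at for the part they might have in these differences, which was not tested. The summed signal of 22 fibroblast and feeder markers was 7557 and 7650 in ES and 6670.1 to 9964 in iPS, mostly from Vim, and Col1a1, Dcn, Postn, Fap and Twist2 were at or under the floor in all arrays. The sum of 21 neural markers was 11025 and 11857 in ES and 12642 to 15163 in iPS, without overlap and mostly from Stmn2, and Dcx and Neurog2 were at or under the floor in every array. The sum of 17 blood and macrophage markers was higher in ES, at 4963 and 5144, than in iPS, at 3506 to 4249, again without overlap and mostly from Laptm5, while Ptprc, Hba-a1 and Itgam were at or under the floor. Sums of 16 trophoblast markers were 3132 and 3348 in ES and 3378 to 6026 in iPS, with Tfap2c the brightest member. These sums were narrowly apart, and those of the 13 members tested overlapped (3100 and 3317 in ES, 3315 to 5966 in iPS). The sums of 19 primitive endoderm markers (13982 and 14064 in ES, 12184 to 14905 in iPS) and of 15 mesendoderm markers (1219 and 1447 in ES, 1308 to 1524 in iPS) overlapped. Of the members tested, higher and then lower genes numbered 0 and 1 of 15 for fibroblast, 5 and 2 of 18 for neural, 1 and 1 of 11 for blood, 1 and 2 of 13 for trophoblast, 1 and 1 of 15 for primitive endoderm, and 3 and 1 of 12 for mesendoderm markers, and none passed.

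A second probe set of the same gene gave a measurement that the rule had not used. Of 536 higher genes with a second probe set, 87 (16.2%) had it higher in all 6 iPS arrays and 11 had it lower, beside 4.94% higher among all 6596 genes with 2 or more probe sets. Of 390 lower genes, 111 (28.5%) had it lower and 2 had it higher, beside 5.84% lower among all. Of the 17 called genes 8 had a second probe set over the filter, and for 6 of them it was separated in the same direction. The exceptions were Mid1 and Armcx2, whose second probe sets were not separated, although the dimmest set of Armcx2 was separated higher.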

How the data were processed

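RNA of the 8 samples was hybridised to an Affymetrix 3′ array, per the labels' protocols. The authors deposited MAS5 signals, which are intensities on a linear scale, per the submitters' processing notes. For scaling and detection calls, the sources used here give nothing. The 2% trimmed mean was 500 on every array. The members, gene lists and named genes were chosen with earlier results of these data known. Of 45101 probe sets, 34945 have 1 gene symbol in the platform annotation, 932 have several and 9160 have none; only the first were used. Probe sets over the floor (37.1) in at least 2 arrays were kept, and the brightest stood for its gene. On log2(signal + 12), limma 3.58.1 (R 4.3.3; lmFit, eBayes with intensity trend) compared 6 iPS with 2 ES arrays, adjusted by Benjamini-Hochberg. Named genes were those separated and called with the widest gap, the most even lines, called list members and all reprogramming factors; clone names were to be passed over, and 2610037D02Rik and the genes that were not called are exceptions chosen after their values were seen. The number of arrays limits the precision. Alternatives were other normalizations, pseudocounts, filters, probe set rules, variance models, blocks, and leaving out arrays or lines. The fit was tested on simulated data.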

Additional observations from a re-analysis of the deposited data

Results flagged for a closer look

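Of 41 genes checked, 14 differed between the 3 iPS lines by the limma F test, beside 29.2% of all genes tested. For these 14 the pooled difference averages unequal lines. The range of the line means (log2) and the adjusted p were 1.24 (5.01e-06) for Acta2, with line 1 highest, 1.07 (7.62e-06) for Aard, with line 2 lowest, and 1.13 (0.00114) for Tagln, with line 1 highest. For Lef1 they were 0.891 (0.00174), for Zdbf2 0.705 (0.00257), for Htra1 0.755 (0.00355), for Gadd45g 0.721 (0.0153), for Xaf1 0.628 (0.0184), for Pramel7 1.16 (0.0185) and for Cmtm8 1.23 (0.0474), by limma. Among genes that passed the pooled test the ranges were smaller: 0.371 (0.00626) for Plac8, 0.32 (0.0258) for Esrp1, 0.29 (0.0297) for Phlda2 and 0.191 (0.0495) for Psat1, by limma. The pooled test favours small ranges, because the spread between lines enters its error. All 3 lines of each of these 14 genes lay on the same side of ES, which follows from the choice of separated genes.

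One array lay far from the others of its group: Ano10 in replicate 1 of iPS line 3 had a signal of 16.7, and its distance to the next of the 6 iPS arrays was 0.662 of their whole range. Such a distance arises by chance in about 1 in 20 groups.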

How the results depend on the processing

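The count of 17 called genes depended on how the lines and the ES arrays entered limma. It was 1022 with each line its own group (692 of them separated), 7 with line as a random block (within-line correlation 0.48), 7 without the variance trend and 0 with line means as samples (281 at an unadjusted p under 0.05). Leaving out 1 array gave 0 to 20 called genes, with 0 without either ES array and 10 without either array of line 1 or without replicate 1 of line 3. Leaving out a whole line gave 9 without line 1, 202 without line 2 and 22 without line 3. The replicate numbers did not pair the samples (correlations of same-numbered deviations from -0.01 to 0.03), and a replicate block gave 8 called genes, all among the 17. The other normalizations, pseudocounts, filters and probe set rules gave 15 to 21. The 1806 separated genes became 2069 to 4068 with 1 array left out, 3773 and 4068 of them without ES replicate 1 and 2, 3261 without line 2, 3292 without line 3 and 6166 with line means, where fewer arrays have to lie on the same side.

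Directions turned only for uncalled genes near 0 or with discordant probe sets, and the cause was not tested. Sox2 became 0.011 after quantile normalization, 0.00205 without line 1, 0.00554 without line 2, and -0.057 to 0.051 with 1 array left out. Mycl became 0.45 and Tmem108 (-0.63) became 0.14 with the mean of all probe sets. Mycl was 0.080 without line 2 and -0.106 to 0.065 with 1 array left out, and Lin28a was -0.052 without line 3. With 2 ES arrays an exact two-sided rank test of a single gene cannot give a p below 0.0714. The background correction could not be changed from deposited signals, and dim signals limit the precision of genes near the floor.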

Other observations

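Some uncalled genes, chosen after their values were seen, had nearly equal differences from ES in all 3 lines, which share the ES arrays. Syt11, a synaptotagmin gene, lay at 108 and 89.4 in ES and at 151, 163 and 177 (lowest, median and highest) in iPS, with line differences of 0.66, 0.67 and 0.66 and a pooled difference of 0.67 ± 0.16 (limma adjusted p = 0.237). Dpp4, a surface peptidase gene, had line differences of -0.57, -0.53 and -0.52 (pooled -0.54 ± 0.10, limma adjusted p = 0.0954). Fez1, a gene of axon growth, had -0.82, -0.89 and -0.81 (pooled -0.84 ± 0.18, limma adjusted p = 0.156). None of these passed, and the spread between the 2 ES arrays or within lines enters their errors.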
